A study of Mus musculus with 32 samples.

Results

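The cell cycle genes examined here were 40 mouse genes for cyclins, kinases, replication proteins and mitotic proteins. They come from 55359 genes in the count tables of bone and gingiva. They were chosen by name with earlier results of these data known, in which cell cycle genes moved opposite ways in the tissues. All 40 were found by symbol in both tables and all 40 had enough counts to be tested in each tissue. A dividing cell makes these proteins in waves. Cyclin E with CDK2 and the E2F factors opens the way into S phase, the minichromosome maintenance (MCM) helicase, set on the DNA by its loaders, unwinds it for copying, and cyclins A and B with CDK1 then drive mitosis. In bone most dividing cells belong to the blood-forming marrow, and in gingiva the dividing cells of the epithelium lie in and near its basal layer. The members were ordered by 7 roles, with 4 genes of the step from G1 to S phase, 10 of origin licensing and replication, 2 of deoxynucleotide synthesis, 9 of the step from G2 to mitosis, 5 of the spindle checkpoint and the anaphase-promoting complex, 8 of the kinetochore, spindle and cytokinesis, and 2 general markers of proliferation.

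Poly(A) RNA came from bone and gingiva of wild type C57BL/6J mice, males aged 9 weeks, in 4 groups. LiTra mice had both a silk ligature tied round the left second molar of the upper jaw, which induces periodontitis, and composite resin built on the biting surface of that tooth, which overloads it. Tra mice (CR in the table columns) had the resin alone, Li mice had the ligature alone, and Co mice were untreated. Every group was represented by 4 libraries of bone and 4 of gingiva, which makes 32. The time from treatment to sampling is not in the labels. Nothing states that libraries of a group came from separate animals or that equal numbers mark a shared animal, so p-values measure only the spread between these libraries. Values listed for a group are those of libraries 1 to 4 in that order.

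Each bone library held between 38163979 and 70793037 counts, and each gingiva library between 36913075 and 50740393. The lowest count of any member in any library was 70 in bone and 69 in gingiva, both for Cdc25c. Levels are given in CPM, a gene's count scaled to a common library size, with library sizes adjusted by TMM over all 32 libraries, and they are not corrected for gene length. Summed osteoblast and osteocyte markers reached 6568 to 20789 CPM in Co bone, against 1087 to 2449 CPM in Co gingiva. Suprabasal keratinocyte markers summed to 6.10 to 5964 CPM in Co bone, against 71419.9 to 95834 CPM in Co gingiva. Both tissues therefore showed the markers of their labels. A trio of bone libraries stood apart, with few genes holding most of the RNA. The top 10 genes made up 53.6% of LiTra 1, 62.9% of Tra 3 and 51.1% of Co 3, against at most 29.3% of any other bone library. Nasal gland genes made up 50.04%, 22.7% and 46.9% of these libraries. Outside the trio they also made up 24.0% of Li 2 and 14.7% of Co 4, and at most 6.81%, in Tra 1, of the remaining bone libraries. Cell cycle members made up 0.0876% of LiTra 1, 0.0442% of Tra 3 and 0.154% of Co 3, and 0.222% to 0.448% of the other bone libraries. Counts of called members that use bone, and the log2 fold changes of many members for the combined treatment in bone, are therefore also given without these 3 libraries. Genes other than the members are given with all bone libraries only. In whole tissue, fewer cells of a type and less RNA per cell cannot be told apart.

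Untreated bone held more of the cell cycle transcripts than untreated gingiva. Summed over the 40 genes, Co bone had 3697, 3241, 2355 and 3337 CPM, against 1129, 1678, 1322 and 1571 CPM in Co gingiva. In a fit of all 32 libraries over 22559 genes with edgeR's quasi-likelihood test, 33 of the 40 were higher in Co bone at a Benjamini-Hochberg adjusted p under 0.05, the threshold for a called gene throughout, and none was lower. Of all genes tested, 27.2% were called higher in Co bone. Without the 3 libraries 37 members were called higher, and the share of all genes in that fit is not given here. The largest difference was that of Ccnb2, which encodes cyclin B2, with a log2 fold change of 2.35 ± 0.32 (SE) and an adjusted p of 7.95e-07. Mki67, Rrm2 and Ube2c stood at 2.11 ± 0.26, 2.203 ± 0.29 and 2.06 ± 0.27 on the same scale. Pcna, the sliding clamp of the DNA polymerases, was the only member below 0, at -0.13 ± 0.18 with an adjusted p of 0.576, and its sign turned to 0.0037 without the 3 bone libraries. By role, the median log2 fold change was 1.52 for the 9 genes of G2 and mitosis and 0.79 for the 10 replication genes. The median of all 40 was 1.15, and that of all genes tested was 0.07.

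Promoters are shown for 5 members, by a rule of level and motif given below, since replication genes and mitotic genes are known to be driven through different promoter elements. They are RefSeq windows of build GRCm38.p6, which is not the build of the counts, and run from 250 bases before the transcription start to 50 after it, 5′ to 3′ on the gene's strand. Capitals mark matches on either strand to the E2F motif (TTTCCCGC, TTTGGCGC, TTTCGCGC or TTTGCCGC), to the cell cycle homology region (TTTGAA or TTCGAA) or to CCAAT, which reads ATTGG on the other strand. Pcna at chr2:132253131-132253430 and Mcm6 at chr1:128359656-128359955, both on the minus strand, are the replication genes with the highest mean levels that held a match. Ccnb1 at chr13:100786437-100786736 and Cdk1 at chr10:69352863-69353162, also on the minus strand, are the corresponding genes of G2 and mitosis. Ube2c at chr2:164769679-164769978 on the plus strand was added after its values were seen.
Pcna: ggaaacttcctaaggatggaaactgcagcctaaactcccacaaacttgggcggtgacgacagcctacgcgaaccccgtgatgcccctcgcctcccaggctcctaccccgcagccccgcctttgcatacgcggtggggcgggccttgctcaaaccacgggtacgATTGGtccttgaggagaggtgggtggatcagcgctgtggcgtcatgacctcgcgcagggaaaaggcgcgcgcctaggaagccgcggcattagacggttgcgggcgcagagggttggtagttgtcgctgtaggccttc
Mcm6: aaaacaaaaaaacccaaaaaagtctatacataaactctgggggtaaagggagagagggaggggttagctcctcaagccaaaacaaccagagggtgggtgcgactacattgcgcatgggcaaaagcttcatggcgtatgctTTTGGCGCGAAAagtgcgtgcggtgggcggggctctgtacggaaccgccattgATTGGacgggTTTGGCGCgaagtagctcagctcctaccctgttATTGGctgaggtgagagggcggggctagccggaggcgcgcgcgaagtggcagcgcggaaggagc
Ccnb1: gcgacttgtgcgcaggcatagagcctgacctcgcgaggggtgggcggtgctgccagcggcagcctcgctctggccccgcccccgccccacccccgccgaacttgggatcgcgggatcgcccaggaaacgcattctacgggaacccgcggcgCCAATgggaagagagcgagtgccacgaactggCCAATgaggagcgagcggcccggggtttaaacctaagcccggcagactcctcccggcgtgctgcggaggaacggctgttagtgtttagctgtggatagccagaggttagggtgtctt
Cdk1: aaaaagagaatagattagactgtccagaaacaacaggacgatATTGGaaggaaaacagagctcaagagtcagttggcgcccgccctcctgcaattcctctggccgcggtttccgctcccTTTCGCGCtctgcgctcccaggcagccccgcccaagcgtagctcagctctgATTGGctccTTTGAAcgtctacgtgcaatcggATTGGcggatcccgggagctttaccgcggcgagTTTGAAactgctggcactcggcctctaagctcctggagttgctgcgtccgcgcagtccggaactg
Ube2c: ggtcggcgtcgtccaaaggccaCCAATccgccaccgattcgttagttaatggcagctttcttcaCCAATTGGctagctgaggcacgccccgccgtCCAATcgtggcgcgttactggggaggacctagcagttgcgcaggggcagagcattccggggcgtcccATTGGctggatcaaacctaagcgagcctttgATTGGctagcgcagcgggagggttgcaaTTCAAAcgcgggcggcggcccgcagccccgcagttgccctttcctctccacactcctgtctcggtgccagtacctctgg
Mcm6 held E2F matches from -110 to -103, from -106 to -99 on the other strand, overlapping the first, and from -47 to -40, counted from the start site. Cdk1 held matches to all 3 elements, Ube2c held the cell cycle homology region from -29 to -24 with 6 CCAAT matches, and Ccnb1 and Pcna held CCAAT alone.

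Windows were found for 32 of the 40 members, 33 windows in all. The E2F motif stood in 6 of the 10 windows of replication genes, in 1 of 5 windows of G2 and mitosis genes and in 0 of 5 windows of checkpoint genes, against 2.27% of the 32851 windows of 27025 genes. It also stood in 1 of 3 windows of the step into S phase. For deoxynucleotide synthesis, for the kinetochore, spindle and cytokinesis and for the markers it stood in 0 of 2, 0 of 6 and 0 of 2. The cell cycle homology region stood in 3 of 10 replication windows, in 4 of 5 windows of G2 and mitosis genes and in 5 of 5 windows of checkpoint genes, against 19.2% of all windows. In the same order as above, the other roles held it in 0 of 3, 0 of 2, 3 of 6 and 2 of 2 windows. CCAAT stood in 26 of the 33 member windows (78.8%), against 37.4% of all windows. These are matches of letters and say nothing of whether a factor was bound.

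The combined treatment went with lower cell cycle transcripts in bone. Of the 40 members, 39 had a log2 fold change below 0 for LiTra against Co, 11 were called lower and none was called higher. Of the 21205 genes tested in bone, 8.64% were called lower. The median log2 fold change of the members was -0.69, against -0.011 for all genes, and 22 of the 40 had an unadjusted p under 0.05. Counts at an unadjusted p, here and below, are given without the share of all genes, so they cannot be set against a background. For 17 of the 40, all LiTra libraries lay below all Co libraries, as did those of 12.5% of all genes tested. Summed over the 40 genes, LiTra bone had 1546, 1933, 1827 and 2107 CPM, against 3697, 3241, 2355 and 3337 CPM in Co bone. Each LiTra library was below each Co library, of which Co 3 was the lowest. The number called moved with single libraries. Without Tra 3, which enters the estimate of the spread, 28 members were called lower, as were 11.2% of all genes. The number of members was 4 without LiTra 2, 5 without Co 4, 6 without LiTra 1, 7 without Co 1 and 7 without LiTra 3. For these last fits the share of all genes called is not given here. Without Co 3, Tra 3 and LiTra 1 the number of members was 30, including all 11, with a median of -0.72, and 11.3% of 21600 genes were called lower. With library totals in place of TMM no gene in bone was called lower, while the same 39 members were below 0 with a median of -0.65.

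**Figure D1:**
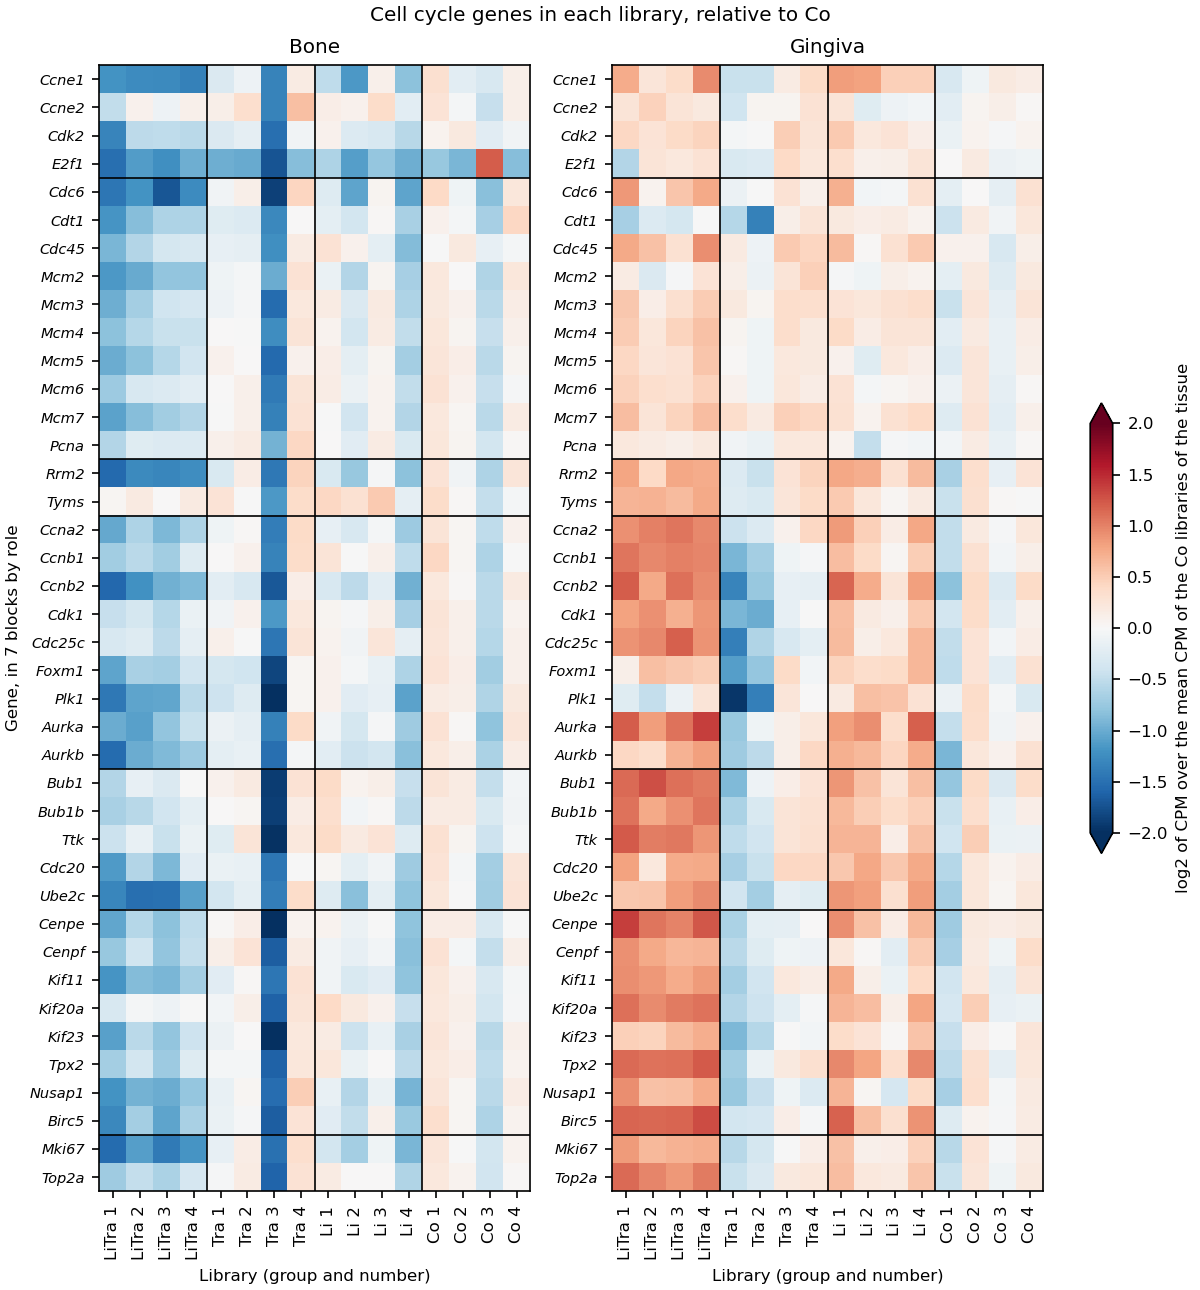
Level of the 40 cell cycle genes in each library of bone (left) and gingiva (right), as log2 of CPM over the mean CPM of the 4 Co libraries of the tissue, from blue (lower) to red (higher), with groups LiTra, Tra, Li and Co from left to right and genes in 7 blocks by role. LiTra columns are mostly blue in bone and mostly red in gingiva, bone Tra 3 is blue in every row, and E2f1 is red in bone Co 3 alone.

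Among the genes of the step into S phase, Ccne1, which encodes cyclin E1, the activating partner of CDK2, fell in LiTra bone. Its level was 10.6, 10.2, 10.1 and 9.55 CPM in LiTra bone, against 30.4, 21.1, 19.6 and 26.4 CPM in Co bone (log2 fold change -1.28 ± 0.29 (SE), adjusted p = 0.00741). The groups did not overlap, and the LiTra libraries lay close together. Cdk2 was not called, with 26.9, 46.9, 47.3 and 46.2 CPM in LiTra bone and 70.2, 76.8, 57.5 and 64.3 CPM in Co bone (log2 fold change -0.70 ± 0.25 (SE), adjusted p = 0.0763), and LiTra 1 lay far below the other 3. E2f1, a transcription factor that the Rb protein holds back, had 13.6, 17.995, 16.7 and 19.7 CPM in LiTra bone, against 22.9, 20.7, 90.3 and 21.5 CPM in Co bone (log2 fold change -1.23 ± 0.42 (SE), adjusted p = 0.0571). Co 3 alone was far above the rest, so the size of this difference rests on that library, and without the 3 libraries it was -0.26 ± 0.12 (adjusted p = 0.155). Ccne2, the gene of cyclin E2, stood at -0.10 ± 0.29. Without the 3 libraries Ccne1 (-1.38 ± 0.26, adjusted p = 0.00317) and Cdk2 (-0.59 ± 0.14, adjusted p = 0.00992) were called lower. Ccne2 (-0.096 ± 0.15) was not called in that fit either.

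All 10 replication genes were below 0 and 3 were called lower. Cdc6, which with Cdt1 loads the MCM helicase onto origins, had the largest fall of all members, with 13.6, 16.2, 11.3 and 15.5 CPM in LiTra bone, against 49.2, 35.02, 20.8 and 43.7 CPM in Co bone (log2 fold change -1.40 ± 0.39 (SE), adjusted p = 0.0256). Every LiTra library was below every Co library. Cdt1 fell by 0.81 ± 0.25 on the log2 scale (adjusted p = 0.0423), with LiTra 3 and LiTra 4 just above Co 3. Mcm2, a subunit of the helicase, was at 41.4, 45.4, 52.98 and 53.005 CPM in LiTra bone, against 106, 92.2, 59.98 and 107 CPM in Co bone (log2 fold change -0.93 ± 0.24 (SE), adjusted p = 0.0161). Mcm7, another subunit, was at 59.9, 69.5, 77.5 and 83.3 CPM in LiTra bone, against 145, 129, 86.4 and 140.2 CPM in Co bone (log2 fold change -0.80 ± 0.27 (SE), adjusted p = 0.058). The libraries of both genes did not overlap between the groups, but Mcm7 was not called. Pcna, the replication gene with the highest level, was at 99.6, 126, 123 and 123 CPM in LiTra bone, against 174, 154, 116 and 152 CPM in Co bone (log2 fold change -0.35 ± 0.21 (SE), adjusted p = 0.307), and its groups overlapped. The other members, Cdc45, Mcm3, Mcm4, Mcm5 and Mcm6, lay between -0.68 and -0.38 and were not called. Without the 3 libraries Mcm7 (-0.85 ± 0.16, adjusted p = 0.00277) and Pcna (-0.37 ± 0.12, adjusted p = 0.0478) were called as well. So were Mcm3 (-0.60 ± 0.18), Mcm4 (-0.61 ± 0.15) and Mcm5 (-0.72 ± 0.18), while Cdc45 and Mcm6 remained without a call. In that fit Cdc6 was at -1.57 ± 0.28 and Mcm2 at -1.01 ± 0.18. With all libraries the median of the 10 was -0.63.

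The 2 genes of deoxynucleotide synthesis differed from each other. Rrm2, the regulated small subunit of ribonucleotide reductase, fell to 47.3, 57.2, 56.3 and 58.6 CPM in LiTra bone, against 167, 132, 90.8 and 165 CPM in Co bone (log2 fold change -1.35 ± 0.31 (SE), adjusted p = 0.00883), with no overlap. Tyms, thymidylate synthase, was the only member above 0, at 27.4, 30.2, 26.95 and 30.2 CPM in LiTra bone and 34.6, 27.2, 19.3 and 25.99 CPM in Co bone (log2 fold change 0.09 ± 0.25 (SE), adjusted p = 0.876). Its groups overlapped, and its sign turned to -0.0048 without the 3 libraries, where Rrm2 was at -1.43 ± 0.22.

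All 9 genes of G2 and mitosis were below 0, and Ccnb2 and Aurkb were called lower. Ccnb2 had 19.2, 24.6, 29.1 and 30.9 CPM in LiTra bone, against 66.1, 57.7, 38.96 and 64.6 CPM in Co bone (log2 fold change -1.14 ± 0.30 (SE), adjusted p = 0.0172), and no LiTra library reached the lowest Co library. Aurkb, the kinase of the chromosomal passenger complex, had a log2 fold change of -1.02 ± 0.28 (adjusted p = 0.0213). Ccna2, which encodes cyclin A2, was at 54.8, 72.6, 59.7 and 72.2 CPM in LiTra bone, against 133, 115, 78.4 and 118 CPM in Co bone (log2 fold change -0.79 ± 0.27 (SE), adjusted p = 0.0609). The Ccna2 libraries did not overlap but the gene was not called. Ccnb1, Cdk1, Cdc25c, Foxm1, Plk1 and Aurka lay between -0.99 (Plk1) and -0.33 (Cdc25c), none of them called. Without the 3 libraries all of the 9 but Cdk1 were called lower, with Ccnb2 at -1.15 ± 0.18, Aurkb at -1.03 ± 0.13 and Ccna2 at -0.84 ± 0.17.

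All 5 genes of the checkpoint and the anaphase-promoting complex and all 8 genes of the kinetochore, spindle and cytokinesis were below 0. Ube2c, the ubiquitin-conjugating enzyme that works with the anaphase-promoting complex, fell to 24.9, 21.6, 21.9 and 28.7 CPM in LiTra bone, against 71.8, 60.96, 37.97 and 74.2 CPM in Co bone (log2 fold change -1.35 ± 0.29 (SE), adjusted p = 0.00628), with no overlap. The checkpoint kinases Bub1, Bub1b and Ttk were smaller in their difference, at -0.26, -0.45 and -0.30, and none was called. Bub1b had 35.6, 37.8, 42.7 and 48.6 CPM in LiTra bone and 62.1, 62.2, 45.3 and 53.2 CPM in Co bone, where LiTra 4 overlapped with Co 3. Kif11, the motor that pushes spindle poles apart, fell to 46.1, 57.2, 55.04 and 65.2 CPM in LiTra bone, against 121, 111, 83.2 and 102 CPM in Co bone (log2 fold change -0.91 ± 0.27 (SE), adjusted p = 0.0305). Birc5, survivin of the chromosomal passenger complex, was at 22.2, 33.9, 26.2 and 34.8 CPM in LiTra bone, against 68.7, 55.6, 35.6 and 57.3 CPM in Co bone (log2 fold change -0.90 ± 0.32 (SE), adjusted p = 0.0656). Neither gene overlapped between the groups, but only Kif11 was called. Nusap1, a microtubule-binding protein of the spindle, also fell, by 0.98 ± 0.31 on the log2 scale (adjusted p = 0.0418). The other members of this role ranged from -0.73 (Cenpe) to -0.13 (Kif20a). Without the 3 libraries Ube2c was at -1.52 ± 0.22, Kif11 at -0.91 ± 0.17, Birc5 at -0.94 ± 0.19 and Nusap1 at -1.04 ± 0.20, all called. Cdc20, Cenpe, Cenpf, Kif23 and Tpx2 were called lower there too, while Bub1, Bub1b, Ttk and Kif20a remained without a call.

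Mki67, which encodes the Ki-67 antigen of proliferating cells, fell to 203, 276, 222 and 261 CPM in LiTra bone, against 700.4, 589.9, 462 and 619.6 CPM in Co bone (log2 fold change -1.32 ± 0.29 (SE), adjusted p = 0.0077). Every LiTra library lay well under the lowest Co library. Top2a, the topoisomerase that untangles replicated DNA, was at 169, 200.3, 179 and 221 CPM in LiTra bone, against 322, 292, 214 and 282 CPM in Co bone (log2 fold change -0.54 ± 0.29 (SE), adjusted p = 0.24). For Top2a LiTra 4 lay above Co 3, and the gene was not called. Without the 3 libraries Mki67 was at -1.33 ± 0.19 and Top2a at -0.58 ± 0.17 (adjusted p = 0.0285), both called.

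**Figure D2:**
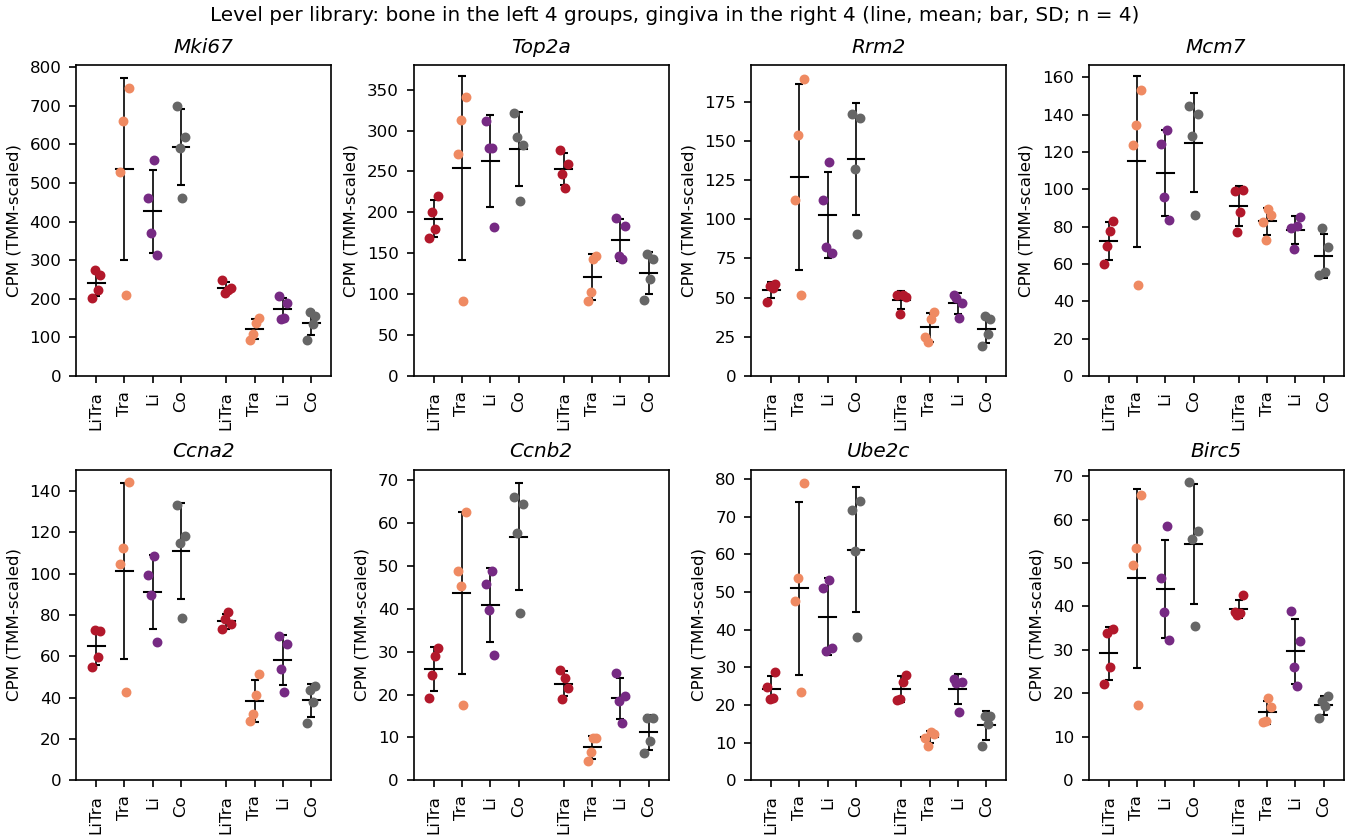
CPM (TMM-scaled) of 8 members in every library, as points by group, with the group mean as a line and the SD as a bar (n = 4), bone on the left and gingiva on the right of each panel, each with LiTra, Tra, Li and Co in that order. In bone the LiTra points lie below the Co points for all 8 but for 1 overlap in Top2a, in gingiva they lie above them for all 8 but for 1 overlap in Mcm7, and the lowest bone Tra point in each panel is Tra 3.

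Ligature alone left the members of bone without a call. In Li bone against Co bone, edgeR called 0 of 40 and none had an unadjusted p under 0.05, while 3.51% of all genes were called in either direction. DESeq2 and limma-voom (run with sample quality weights, here and below) also called 0. Without Co 3, Tra 3 and LiTra 1 edgeR called 2 members, both lower, against 3.17% of all genes called lower. The median log2 fold change was -0.20 and 34 of the 40 were below 0. The extremes were E2f1 at -0.88 ± 0.41 and Tyms at 0.29 ± 0.25, and the value of E2f1 was 2.26e-05 without the 3 libraries. Ccne2, Cdc25c, Bub1, Ttk and Kif20a were the other members above 0, at 0.024 to 0.16. Scaled by library totals, the median of all genes was 0.13, a shift of 0.15, and 14 of the 40 members were above 0. Summed over the members, Li bone had 3069.9, 2507, 3132 and 1961 CPM, with Li 2 and Li 4 the lowest.

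Overload alone likewise gave no call in bone. In Tra bone against Co bone, edgeR called 0 of the 40 members and 0% of all genes, with 1 member at an unadjusted p under 0.05. DESeq2, limma-voom and the fit without the 3 libraries called 0 members. The median of the members was -0.18, and without Tra 3 it was 0.079. Tra bone had a summed level of 2944, 3272, 1143 and 3805 CPM, where Tra 3 lay far below and Tra 4 above every Co library. The member furthest below 0 was E2f1 at -1.11 ± 0.42, which became -0.087 without the 3 libraries. Ccne2 at 0.11 ± 0.29 and Pcna at 0.032 were the members above 0, and Cenpf and Tyms turned positive when scaled by library totals.

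Adding overload to the ligature was followed by no call in bone, although every member was below 0. In LiTra bone against Li bone the log2 fold changes ran from -0.91 ± 0.31 for Rrm2 to -0.20 ± 0.25 for Tyms, with a median of -0.49. EdgeR called 0 of the 40 and 0% of all genes, and 9 members had an unadjusted p under 0.05. DESeq2, limma-voom and the fit without the 3 libraries called 0 members. Scaling by library totals shifted the median of all genes by -0.10 in this comparison. In LiTra bone against Tra bone 3 of the 40 were called lower, namely Rrm2 (-1.24 ± 0.31, adjusted p = 0.0308), Ube2c (-1.10 ± 0.29, adjusted p = 0.0398) and Mki67 (-1.19 ± 0.29, adjusted p = 0.0295). Of all genes 2.49% were called lower. Mki67 had 203, 276, 222 and 261 CPM in LiTra bone, against 529, 659.7, 209.9 and 745 CPM in Tra bone. Tra 3 lay within the LiTra range and the other 3 Tra libraries far above it. Cdc6 had the lowest value, -1.29 ± 0.39, without a call, and Tyms and Kif20a were above 0 at 0.094 and 0.022, of which Kif20a turned negative with library totals. The count of 3 depended on single libraries. It was 22 without Tra 3, 22 without Co 3, Tra 3 and LiTra 1, 1 without Tra 1, and 0 without Tra 2, Tra 4 or any 1 of the LiTra libraries. Of all genes, 4.70% were called lower without Tra 3 and 4.81% without the 3 libraries, and the share in the other fits is not given here. The interaction, which sets LiTra against Tra and subtracts Li against Co, was called for 0 members and 0% of all genes. No member had an unadjusted p under 0.05 for it. DESeq2, limma-voom and the fit without the 3 libraries called 0, and the values ran from -0.80 ± 0.43 for Rrm2 to 0.76 ± 0.58 for E2f1, the only member above 0. Without Co 3 the value of E2f1 was -0.12.

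In gingiva the combined treatment went with higher cell cycle transcripts. Of the 40 members 29 were called higher in LiTra gingiva against Co gingiva and none was called lower. Of the 20143 genes tested in gingiva, 11.4% were called higher. The median log2 fold change of the members was 0.68, against -0.0099 for all genes, and 38 of the 40 were above 0. For 29 of the 40, the called ones without Cdc6, Mcm5 and Mcm7 and with Ccne1, Ccne2 and Aurkb, every LiTra library was above every Co library, as was the case for 14.7% of all genes tested. Summed over the 40 genes, LiTra gingiva had 2313, 2077, 2135 and 2311 CPM, against 1129, 1678, 1322 and 1571 CPM in Co gingiva. Each LiTra library was above each Co library, and the LiTra libraries were closer together. The number called was between 21 and 33 over the alternatives run, for which the share of all genes is not given here.

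The largest differences in gingiva were in the mitotic roles. The median log2 fold change was 0.99 for G2 and mitosis, 0.96 for the checkpoint and 0.94 for the kinetochore, spindle and cytokinesis, against 0.39 for replication and 0.33 for the step into S phase. Calls were made for 6 of 9, 4 of 5, 8 of 8, 6 of 10 and 1 of 4 genes in that order, and for 2 of 2 genes of deoxynucleotide synthesis and 2 of 2 markers. Whether the roles differ was not tested.

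Of the genes of the step into S phase, Cdk2 rose, with 46.97, 42.9, 46.1 and 48.2 CPM in LiTra gingiva, against 32.4, 37.3, 34.9 and 37.2 CPM in Co gingiva (log2 fold change 0.38 ± 0.12 (SE), adjusted p = 0.0307). Ccne1 was at 12.9, 9.14, 9.94 and 14.8 CPM in LiTra gingiva, against 6.16, 7.21, 8.85 and 8.55 CPM in Co gingiva (log2 fold change 0.60 ± 0.21 (SE), adjusted p = 0.0533). The groups did not overlap for either gene, and Ccne1 missed the threshold narrowly. E2f1 was at 0.083 ± 0.19 and Ccne2 at 0.29 ± 0.14, neither called.

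Of the replication genes Cdc6, Cdc45, Mcm4, Mcm5, Mcm6 and Mcm7 rose, by 0.38 (Mcm5) to 0.66 (Cdc45) on the log2 scale. Mcm7 had 99.2, 77.1, 87.7 and 99.6 CPM in LiTra gingiva, against 54.2, 79.1, 55.9 and 69.2 CPM in Co gingiva (log2 fold change 0.49 ± 0.13 (SE), adjusted p = 0.0126), where LiTra 2 lay just under Co 2. Mcm2 had 58.3, 42.4, 51.1 and 62.8 CPM in LiTra gingiva and 45.7, 59.5, 43.8 and 59.3 CPM in Co gingiva (log2 fold change 0.041 ± 0.15 (SE), adjusted p = 0.88). Pcna had 189, 182, 177 and 187 CPM in LiTra gingiva and 157, 182, 146 and 167 CPM in Co gingiva (log2 fold change 0.17 ± 0.12 (SE), adjusted p = 0.347). The groups of Mcm2 and Pcna overlapped and neither was called, nor was Mcm3 at 0.38. Cdt1 was below 0, at -0.31 ± 0.27, without a call.

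Both genes of deoxynucleotide synthesis rose. Rrm2 had 51.8, 39.7, 51.7 and 50.2 CPM in LiTra gingiva, against 19.2, 38.2, 26.8 and 36.3 CPM in Co gingiva (log2 fold change 0.68 ± 0.22 (SE), adjusted p = 0.0382), and Co 2 came close to the lowest LiTra library. Tyms, which was not called in LiTra bone, had 38.9, 39.2, 37.6 and 41.1 CPM in LiTra gingiva, against 17.9, 30.5, 24.8 and 24.2 CPM in Co gingiva (log2 fold change 0.69 ± 0.17 (SE), adjusted p = 0.0113). Its LiTra libraries lay close together and above every Co library.

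Of the 9 genes of G2 and mitosis 6 rose, among them all 3 cyclins. Ccna2 had 73.04, 78.2, 81.5 and 75.6 CPM in LiTra gingiva, against 27.7, 43.9, 37.97 and 45.6 CPM in Co gingiva (log2 fold change 0.99 ± 0.19 (SE), adjusted p = 0.00299). Ccnb2 had 25.7, 18.9, 23.9 and 21.6 CPM in LiTra gingiva, against 6.33, 14.5, 9.24 and 14.6 CPM in Co gingiva (log2 fold change 1.01 ± 0.29 (SE), adjusted p = 0.021). Ccnb1 had 63.3, 58.6, 60.4 and 59.1 CPM in LiTra gingiva, against 21.4, 37.2, 29.02 and 32.5 CPM in Co gingiva (log2 fold change 1.005 ± 0.20 (SE), adjusted p = 0.00314). None of these genes overlapped between the groups. Cdk1, Cdc25c, the phosphatase that activates CDK1, and Aurka, the kinase of the spindle poles, were called too, at 0.83 ± 0.22, 0.99 ± 0.24 and 1.14 ± 0.23. Plk1, another mitotic kinase, was below 0, with 10.7, 9.07, 11.6 and 15.2 CPM in LiTra gingiva and 11.7, 16.3, 12.4 and 10.3 CPM in Co gingiva (log2 fold change -0.12 ± 0.36 (SE), adjusted p = 0.851), and the groups overlapped. Foxm1, a transcription factor of mitotic genes, and Aurkb were above 0 at 0.45 ± 0.27 and 0.58 ± 0.26 and were not called.

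Of the checkpoint genes Bub1, Bub1b, Ttk and Ube2c rose. Bub1b, whose product delays anaphase until chromosomes are attached, had 51.6, 41.1, 45.9 and 51.6 CPM in LiTra gingiva, against 17.9, 30.9, 22.1 and 26.9 CPM in Co gingiva (log2 fold change 0.96 ± 0.20 (SE), adjusted p = 0.00382). Ube2c had 21.3, 21.5, 26.2 and 28.1 CPM in LiTra gingiva, against 9.14, 17.2, 15.1 and 17.2 CPM in Co gingiva (log2 fold change 0.73 ± 0.19 (SE), adjusted p = 0.0141). In both genes all LiTra libraries lay above all Co libraries. The kinases Bub1 and Ttk stood at 1.14 ± 0.26 and 1.05 ± 0.22. Cdc20, an activator of the anaphase-promoting complex, was at 0.65 ± 0.24 without a call (adjusted p = 0.0626).

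All 8 genes of the kinetochore, spindle and cytokinesis rose, from 0.58 ± 0.19 for Kif23, a motor of the midbody, to 1.19 ± 0.16 for Birc5, the largest rise of all members. Birc5 had 38.7, 38.1, 38.5 and 42.5 CPM in LiTra gingiva, against 14.4, 18.2, 17.03 and 19.3 CPM in Co gingiva (adjusted p = 0.000414). All LiTra libraries stood far above the highest Co library. Kif11 had 73.6, 70.2, 64.6 and 69.8 CPM in LiTra gingiva, against 29.7, 44.8, 33.96 and 46.1 CPM in Co gingiva (log2 fold change 0.84 ± 0.21 (SE), adjusted p = 0.0119), again with no overlap. Cenpe, a motor of the kinetochore, Tpx2, an activator of Aurora A, and Kif20a, a motor of cytokinesis, rose by 1.18, 1.13 and 1.04 on the log2 scale.

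Mki67 had 249, 216, 222 and 228 CPM in LiTra gingiva, against 94.1, 166, 136 and 154 CPM in Co gingiva (log2 fold change 0.73 ± 0.18 (SE), adjusted p = 0.00944). Top2a had 276, 247, 229.8 and 259 CPM in LiTra gingiva, against 92.7, 149, 118 and 143 CPM in Co gingiva (log2 fold change 1.01 ± 0.18 (SE), adjusted p = 0.0016). Both rose without overlap. Co 1 was the lowest Co library for both.

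**Figure D3:**
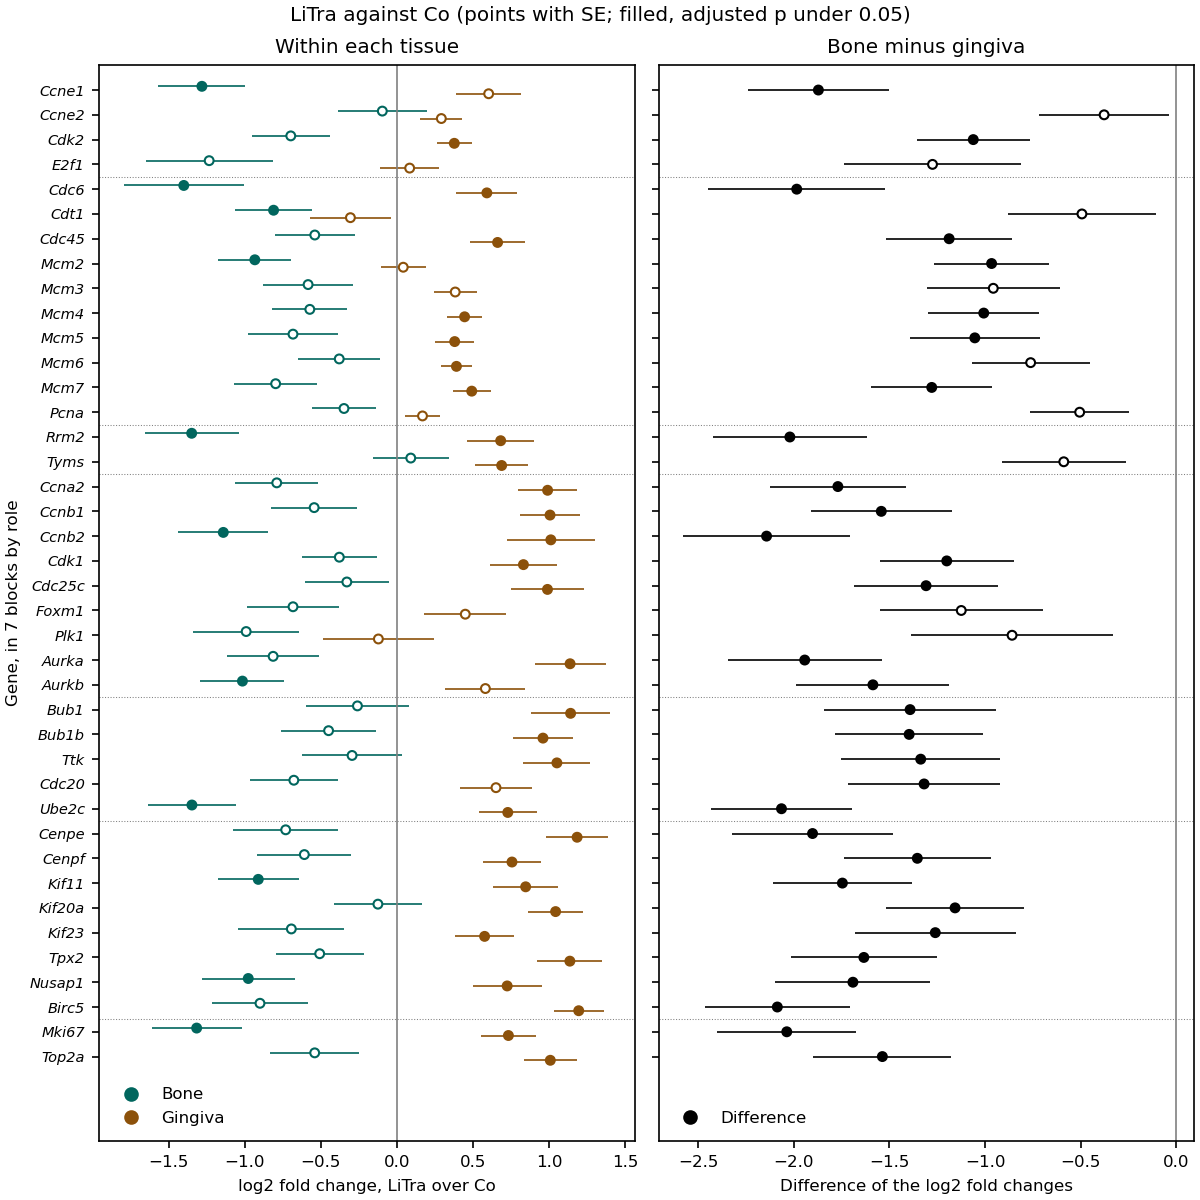
Log2 fold change of LiTra over Co with its SE for each of the 40 genes in bone and gingiva (left), and the difference of the fold changes, bone minus gingiva, with its SE from the fit of all 32 libraries (right), with filled points for an adjusted p under 0.05. The bone points lie left of 0 for 39 genes and the gingiva points right of 0 for 38, and all 40 differences are below 0, of which 31 are filled.

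With ligature alone 4 members of gingiva were called higher, a count that depended on single libraries. In Li gingiva against Co gingiva these were 4 of 40, or 10% of the members, against 5.19% of all genes called higher, and 38 were above 0 with a median of 0.40. Aurka had 13.3, 14.5, 9.66 and 17.4 CPM in Li gingiva, against 5.43, 9.66, 7.23 and 8.02 CPM in Co gingiva (log2 fold change 0.86 ± 0.23 (SE), adjusted p = 0.0368). Ube2c had 26.9, 25.8, 18.2 and 26.1 CPM in Li gingiva, against 9.14, 17.2, 15.1 and 17.2 CPM in Co gingiva (log2 fold change 0.73 ± 0.19 (SE), adjusted p = 0.0321). Birc5 had 38.9, 26.1, 21.6 and 32.2 CPM in Li gingiva, against 14.4, 18.2, 17.03 and 19.3 CPM in Co gingiva (log2 fold change 0.79 ± 0.16 (SE), adjusted p = 0.011). For each of these Li 3 was the lowest Li library, and Aurka had Li 3 level with Co 2. Tpx2 was the other call, at 0.78 ± 0.21 with an adjusted p of 0.038. Pcna and Ccne2 were below 0 at -0.10 and -0.016, of which Ccne2 turned positive with library totals. The number of members called was 7 without Li 3, 2 without Co 4 and 1 without any 1 of Co 1, Co 3, Li 1, Li 2 and Li 4. It was 10 with DESeq2 and 0 when only the Li and Co libraries entered the fit. The share of all genes called in these other fits is not given here.

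Overload alone gave no call in gingiva. In Tra gingiva against Co gingiva edgeR called 0 of the 40 members and 0% of all genes, 2 members had an unadjusted p under 0.05, and DESeq2 and limma-voom called 0 members. The roles parted in sign. Above 0 were 3 of 4 genes of the step into S phase, all but Ccne1, 9 of 10 replication genes, all but Cdt1, and 2 of 2 genes of deoxynucleotide synthesis, whereas all 9 genes of G2 and mitosis, all 8 of the kinetochore, spindle and cytokinesis and 4 of 5 checkpoint genes, all but Cdc20, were below 0. With library totals Ccne2, Cdc20, E2f1 and Tyms were also below 0. The extremes were Mcm7 at 0.36 ± 0.13 and Cdc25c at -0.56 ± 0.24. Summed over the members, Tra gingiva had 1187, 1209.5, 1622 and 1646 CPM, so that Tra 1 and Tra 2 stood apart from Tra 3 and Tra 4.

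Set against overload alone, the combined treatment gave 22 calls in gingiva. In LiTra gingiva against Tra gingiva 22 of the 40 members were called higher and none lower, against 9.36% of all genes called higher, with a median of 0.81. Scaling by library totals shifted the median of all genes by 0.15 here. Of these 22 genes 21 were also called higher in LiTra against Co, in a comparison that shares the LiTra libraries, and Ccne1 was the exception. Cdc25c was the furthest from 0 at 1.54 ± 0.24 (adjusted p = 0.00142), next to Ccnb2 at 1.54 ± 0.29. Ccnb2 had 25.7, 18.9, 23.9 and 21.6 CPM in LiTra gingiva, against 4.45, 6.58, 9.95 and 9.91 CPM in Tra gingiva, with no overlap. None of the 10 replication genes was called. Mcm2 at -0.15 and Cdt1 at -0.05 were below 0, and Cdt1 turned positive with library totals.

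Between LiTra gingiva and Li gingiva edgeR called 0 of the 40 members and 0.0844% of all genes, with 16 members at an unadjusted p under 0.05. DESeq2 called 3 members and limma-voom 2, with the shares of all genes not given here or for the interaction below. The median was 0.30 and 32 members were above 0, from -0.55 ± 0.36 for Plk1 to 0.60 ± 0.20 for Ccnb1. Ccnb1 had 63.3, 58.6, 60.4 and 59.1 CPM in LiTra gingiva, against 45.96, 39.3, 30.8 and 42.2 CPM in Li gingiva, without overlap. Cdt1 (-0.45), E2f1, Ccne1, Aurkb, Foxm1, Cdc20 and Ube2c were the other members below 0, the last 6 between -0.13 and -0.0066, and Cdc20, Foxm1 and Ube2c turned positive with library totals. The interaction was called for 0 members and 0% of all genes by edgeR, with 11 members at an unadjusted p under 0.05, and DESeq2 called 1 and limma-voom 0. Its median was 0.35, and it ran from -0.20 ± 0.38 for Cdt1 to 1.11 ± 0.34 for Cdc25c. All 8 genes of the kinetochore, spindle and cytokinesis were above 0 in the interaction, as were 8 of 9 genes of G2 and mitosis, all but Plk1, and 4 of 5 checkpoint genes, all but Cdc20.

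**Figure D4:**
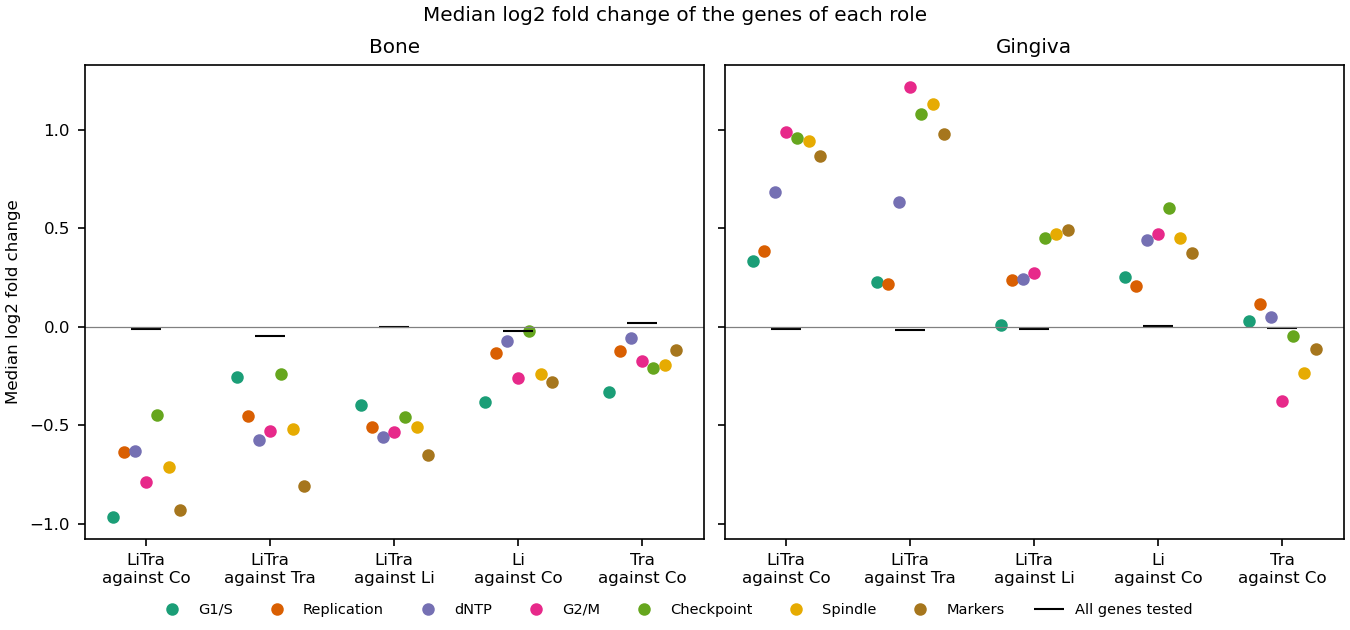
Median log2 fold change of the genes of each of the 7 roles (coloured points) and of all genes tested (black dashes) in 5 comparisons within bone (left) and gingiva (right). For LiTra against Co all 7 medians are below that of all genes in bone, from -0.97 to -0.45, and above it in gingiva, from 0.33 to 0.99.

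The responses of the tissues to the combined treatment differed for most members. The genes were chosen after earlier results of these same data moved opposite ways in the tissues, so the calls below are no independent support. The difference of the LiTra effects, bone minus gingiva, was tested in the fit of all 32 libraries. It was below 0 for all 40 members and called for 31, against 6.68% of all genes called lower, with a median of -1.33 for the members and 0.029 for all genes. It was largest for Ccnb2 at -2.14 ± 0.44 (adjusted p = 0.00298), Birc5 at -2.09 ± 0.38 and Ube2c at -2.06 ± 0.37, and smallest for Ccne2 at -0.38 ± 0.34. All 5 checkpoint genes, all 8 genes of the kinetochore, spindle and cytokinesis and both markers were called, as were 7 of 9 genes of G2 and mitosis, 6 of 10 replication genes, 2 of 4 genes of the step into S phase and 1 of 2 of deoxynucleotide synthesis. The 9 without a call were Ccne2, E2f1, Cdt1, Mcm3, Mcm6, Pcna, Tyms, Foxm1 and Plk1. The number was 35 without the 3 bone libraries, where E2f1 was at -0.37 in place of -1.28, 20 without gingiva Co 1, and 0 with library totals in place of TMM, where all 40 remained below 0. The shares of all genes called in these other fits are not set beside the counts. Of the 11 members called lower in LiTra bone and the 29 called higher in LiTra gingiva, 7 were in both lists, 63.6% of the bone list and 24.1% of the gingiva list. They were Cdc6, Rrm2, Ccnb2, Ube2c, Kif11, Nusap1 and Mki67. Aurkb, Ccne1, Cdt1 and Mcm2 were called in bone alone, which is no test of a difference.

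In mean level, the ratio of bone to gingiva was closer to 1 in LiTra than in Co for 32 of the 40 members. It was further from 1 for Ccnb1, Ccne2, Mcm4, Mcm5, Mcm6, Pcna, Ttk and Tyms, and the levels were not tested for this. The members were chosen with opposite moves in the tissues known, and all but Pcna were higher on average in Co bone than in Co gingiva. A ratio closer to 1 follows in part from that choice and is no separate support. The share of all genes for which it holds is not given here. Mki67 averaged 240.2 ± 33.7 CPM in LiTra bone and 229 ± 14.4 CPM in LiTra gingiva (SD, n = 4 each). In the untreated groups it averaged 593 ± 99.2 CPM in Co bone and 138 ± 31.7 CPM in Co gingiva. Ube2c averaged 24.3 ± 3.32 CPM in LiTra bone and 24.3 ± 3.43 CPM in LiTra gingiva, against 61.2 ± 16.6 CPM in Co bone and 14.6 ± 3.81 CPM in Co gingiva. Top2a and Birc5, like most of the 40 members, were higher on average in LiTra gingiva than in LiTra bone, a comparison that was not tested. The log2 ratio of bone to gingiva was lowest for Ttk (-0.80) and Ccnb1 (-0.77). Only Aurkb, Ccnb2, Cdt1, E2f1, Foxm1, Mki67, Plk1, Rrm2 and Ube2c were above 0, Ube2c barely.

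For ligature alone the tissue difference was called for 0 of the 40 members by edgeR, against 2.04% of all genes in either direction, with 12 members at an unadjusted p under 0.05. DESeq2 called 4 and limma-voom 6. Without Co 3, Tra 3 and LiTra 1 of bone 11 were called, without bone Tra 3 it was 3, and without bone Co 3 or without bone Li 3 it was 1. The shares of all genes called in these other fits are not given here. The values ran from -1.25 ± 0.43 for Ccnb2 to 0.13 ± 0.34 for Ccne2, with a median of -0.54. Tyms and Pcna, at 0.039 and 0.029, were with Ccne2 the only members above 0, and Ccne2 turned to -0.011 without the 3 libraries.

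For overload alone the tissue difference was called for 0 members and 0% of all genes by edgeR, with 1 member, E2f1, at an unadjusted p under 0.05, and for 0 members by DESeq2, limma-voom and the fit without the 3 bone libraries. The values ran from -1.14 ± 0.46 for E2f1 to 0.42 ± 0.38 for Cdc25c, with a median of -0.11. Without the 3 bone libraries E2f1 was at -0.15.

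Other genes of the cell cycle, in 6 lists, were read beside the members. Of all genes tested for LiTra against Co, 8.64% were called lower and 8.29% higher in bone, and 11.4% were called higher and 11.5% lower in gingiva, which are the shares to set beside the counts of these lists and of the cell type markers. Bone values of these lists and markers come from all libraries, with bone Co 3, Tra 3 and LiTra 1 included, and are not given without them. Of 35 other mitotic genes 12 were called lower in LiTra bone against Co bone and none higher, led by Kif18b, a motor of microtubule ends (-1.64 ± 0.34), the kinase gene Nek2 (-0.85 ± 0.20) and Kif14, a motor of cytokinesis (-1.16 ± 0.29). Of the same 35 genes 27 were called higher in LiTra gingiva against Co gingiva and none lower, led by the condensin subunits Smc4 (0.71 ± 0.11) and Smc2 (0.84 ± 0.14) and the checkpoint gene Bub3 (0.39 ± 0.07). Of 25 other origin and fork genes 3 were called lower in LiTra bone, Pold1, Fen1 and Dut, at -0.97, -0.78 and -0.59, which is 12% of the list and near the share of all genes, and all 25 were below 0. In LiTra gingiva 8 of the 25 were called higher and none lower, led by Dbf4, the activator of the CDC7 kinase (0.94 ± 0.14), Rrm1, the large subunit of ribonucleotide reductase (0.49 ± 0.11), and Pole (0.56 ± 0.16).

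Several E2F factors fell in bone, E2f2 and E2f8 by more than any member. E2f2 had 30.1, 30.5, 29.4 and 39.1 CPM in LiTra bone, against 183, 142, 89.9 and 184 CPM in Co bone (log2 fold change -2.22 ± 0.34 (SE), adjusted p = 0.000847). E2f8, a repressor of the family, had 16.1, 15.2, 17.2 and 20.9 CPM in LiTra bone, against 72.7, 62.1, 39.9 and 70.5 CPM in Co bone (log2 fold change -1.83 ± 0.30 (SE), adjusted p = 0.0012). Neither overlapped between the groups. E2f4 (-1.09 ± 0.21) and Mybl2 (-1.37 ± 0.32) were also called lower and E2f5 (0.68 ± 0.22) higher, which makes 4 lower and 1 higher of the 9 tested. In LiTra gingiva against Co gingiva edgeR called 0 of the 9, of which 3 had an unadjusted p under 0.05, with E2f2 at -0.73 ± 0.29, Lin9 at 0.29 ± 0.12 and E2f7 at 0.74 ± 0.34.

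CDK inhibitors, which hold the cell cycle back, moved in part against the members. Cdkn1a, the gene of p21, had 47.3, 73.3, 68.5 and 65.8 CPM in LiTra bone, against 41.2, 32.9, 41.6 and 31.3 CPM in Co bone (log2 fold change 0.78 ± 0.18 (SE), adjusted p = 0.00862). In gingiva Cdkn1a had 77.8, 60.01, 89.3 and 75.4 CPM in LiTra gingiva, against 124, 116, 127 and 143 CPM in Co gingiva (log2 fold change -0.76 ± 0.18 (SE), adjusted p = 0.00717). The groups did not overlap in either tissue, and the gene rose in bone and fell in gingiva. Of 7 inhibitor genes 2 rose and 2 fell in LiTra bone, Cdkn1b at -0.42 ± 0.11 and Cdkn2d at -0.90 ± 0.27 being the lower ones, and Cdkn2a, at most 1.40 CPM in any LiTra library, being the other higher one at 1.87 ± 0.55. In LiTra gingiva Cdkn2b fell as well (-0.82 ± 0.23), while Cdkn2d and Cdkn1b rose (0.63 ± 0.18 and 0.24 ± 0.08).

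D-type cyclins, which with CDK4 and CDK6 answer growth signals in G1, did not move as a block. Of the 8 genes of this list with the Rb family, 1 was higher and 2 were lower in LiTra bone. Cdk4 was at 0.51 ± 0.10, Rb1 at -1.10 ± 0.22 and Ccnd3 at -0.88 ± 0.18. In LiTra gingiva 2 were higher, Cdk6 (0.95 ± 0.12) and Ccnd3 (0.62 ± 0.12), and 3 were lower, Ccnd1 (-1.02 ± 0.19), Ccnd2 (-0.96 ± 0.18) and Rb1 (-0.40 ± 0.11). Ccnd1, the gene of cyclin D1, had 83.4, 93.7, 129 and 89.9 CPM in LiTra gingiva, against 184, 203, 207 and 208 CPM in Co gingiva, with no overlap. Of 10 p53 target and growth arrest genes 2 were higher and 1 lower in LiTra bone, Gadd45b (0.76 ± 0.18), Ccng1 (0.51 ± 0.15) and Gadd45a (-1.41 ± 0.26), and 1 was higher and 2 were lower in LiTra gingiva, Mdm2 (0.43 ± 0.07), Zmat3 (-0.56 ± 0.16) and Sesn2 (-0.56 ± 0.18).

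Several lists of cell type markers also differed between LiTra and Co, in either direction. In LiTra bone against Co bone 11 of 12 erythroid precursor markers were called lower and none higher, with a summed level of 1727 to 5273 CPM in LiTra bone, against 18063 to 36915 CPM in Co bone. No marker of that list was at 0 in these libraries. The sum is weighted by haemoglobin genes, of which the list holds Hba-a1, Hbb-bs and Hbb-bt. Haemoglobin genes made up 0.324%, 0.525%, 0.203% and 0.45% of the counts in LiTra bone, against 4.26%, 2.84%, 1.36% and 4.43% in Co bone. Neutrophil precursor markers were lower for 5 of 11 and higher for none, with 1945 to 4155 CPM in LiTra bone, against 7296 to 9914 CPM in Co bone, and none at 0. B cell precursor markers were lower for 4 of 11 and higher for none, with 52.8 to 73.7 CPM in LiTra bone, against 198 to 339 CPM in Co bone, and Vpreb2 was at 0 in LiTra 1, LiTra 3 and Co 3. Markers of haematopoietic progenitors were lower for 4 and higher for 1 of 8, with a summed level of 234 to 339.9 CPM in LiTra bone and 282 to 421 CPM in Co bone. T and NK cell markers were lower for 6 of 9, with 15.7 to 23.5 CPM in LiTra bone, against 37.4 to 61.1 CPM in Co bone. Osteoclast markers, of cells that no longer divide, were higher for 6 of 8, with 6007 to 10137 CPM in LiTra bone, against 2332 to 4729.8 CPM in Co bone. The part of these cell types in the lower cell cycle transcripts of bone was not tested.

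In LiTra gingiva against Co gingiva basal keratinocyte markers were higher for 2 and lower for 2 of 7, with a summed level of 24579 to 27648 CPM in LiTra gingiva, against 16399 to 22193 CPM in Co gingiva. Suprabasal keratinocyte markers were lower for 7 of 10 and higher for none, with 35761 to 51097 CPM in LiTra gingiva, against 71419.9 to 95834 CPM in Co gingiva. No marker of these lists was at 0 in these libraries. Macrophage and monocyte markers were higher for 8 of 8, with 746 to 1115 CPM in LiTra gingiva, against 213 to 274 CPM in Co gingiva, and osteoclast markers for 8 of 8, with 846 to 1369.9 CPM in LiTra gingiva, against 159 to 234 CPM in Co gingiva, where Calcr was at 0 in Co 1, Co 2 and Co 3. Endothelial markers were higher for 4 and lower for 1 of 6. T and NK cell markers gave no call by edgeR and 0 of 9 at an unadjusted p under 0.05, with a summed level of 8.33 to 18.8 CPM in LiTra gingiva and 7.17 to 10.8 CPM in Co gingiva. The part of these cell types in the higher cell cycle transcripts of gingiva was not tested. Of the marrow precursor lists only that of neutrophil precursors is given for gingiva. Its markers summed to 55.8 to 212 CPM in LiTra gingiva and 28.4 to 153 CPM in Co gingiva, with up to 6 of 11 at 0 in a library, Elane in all LiTra libraries.

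**Figure D5:**
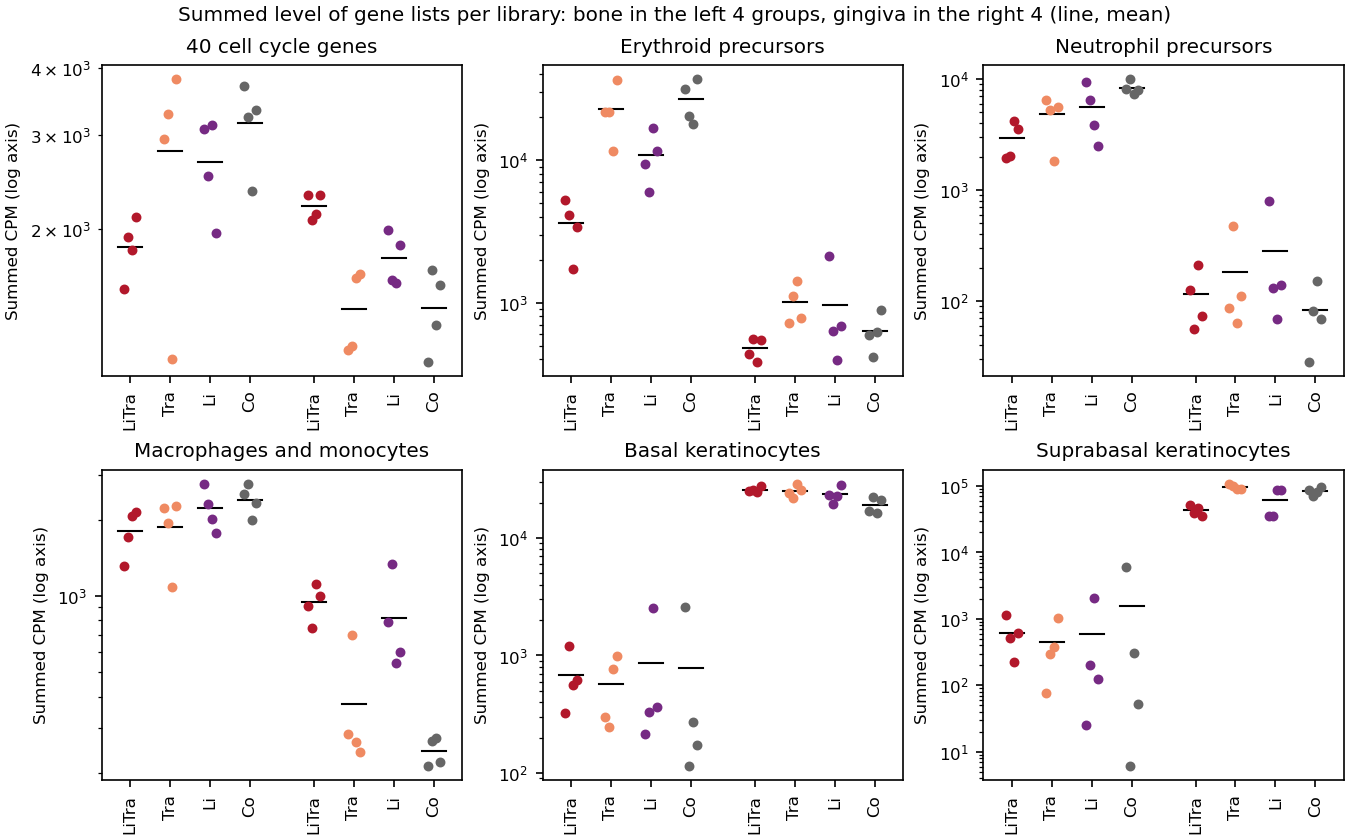
Summed CPM per library on a log axis for the 40 cell cycle genes and for 5 lists of cell type markers, as points by group with the group mean as a line, bone in the left 4 groups and gingiva in the right 4, each with LiTra, Tra, Li and Co in that order. In bone the LiTra points of the erythroid and neutrophil precursor lists lie below the Co points, as those of the cell cycle genes do, and in gingiva the macrophage points of LiTra lie above those of Co.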

How the data were processed

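Poly(A) RNA-seq of 32 libraries, 16 of bone and 16 of gingiva, was analysed. Per the submitters' processing notes, the tools were HISAT2 2.2.1, StringTie 2.1.7, Trimmomatic 0.39 with FastQC 0.11.9, and DESeq2 1.32.0, on mouse build GRCm39. The values deposited by the authors are whole-number estimated counts per gene. The counting step and its strand setting are not given in these sources, and antisense or overlapping genes could share reads. All 32 columns of counts were used.

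Counts were tested with edgeR 4.0.16 (quasi-likelihood test, TMM, filterByExpr with a minimum count of 10 and a minimum total of 15) in R 4.3.3, in a fit of the 16 libraries of each tissue and a fit of all 32 for differences between tissues. P-values are two-sided, Benjamini-Hochberg adjusted over all genes tested. Fold changes come from these fits, and the SE is the log2 fold change over the root of F. The fit was tested on simulated data. Limma 3.58.1 (voom with sample quality weights) and DESeq2 1.42.0 were alternatives, with other scalings, filters, blocks and libraries left out. No libraries of a group agreed within sampling noise (lowest chi-square per degree of freedom 38.4).

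The members and lists were chosen with earlier results of these data known. Values per library are given, in each role, for the gene of highest mean level and for that of smallest p in LiTra against Co of either tissue. The largest and smallest changes and members against the direction of their role are named as well. Of each other list up to 3 genes of smallest p are named, and further called genes of short lists were named after their values were seen. Promoter sequences are from RefSeq, matched by symbol.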

Additional observations from a re-analysis of the deposited data

Results flagged for a closer look

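Single libraries stood apart from the other 3 of their group, by a gap past Dixon's 95% limit, in 9 of 184 groups of 4 libraries tested over 23 members. Chance gives such a gap in about 1 in 20 groups. In bone LiTra 1 was low for Cdk2, at 26.9 CPM against 46.2 to 47.3 in the other LiTra libraries, and for Pcna, at 99.6 CPM against 123 to 126. Bone Tra 3 was low for Bub1b, at 15.2 CPM against 56.3 to 61.7. Bone Co 3 was high for E2f1, at 90.3 CPM against 20.7 to 22.9, and low for Plk1, at 23.8 CPM against 39.2 to 41.3. In gingiva LiTra 2 was low for Rrm2, at 39.7 CPM against 50.2 to 51.8, and LiTra 1 was low for E2f1, at 8.51 CPM against 14.8 to 15.6. Gingiva Li 3 was low for Ube2c, at 18.2 CPM against 25.8 to 26.9. Gingiva LiTra 4 was high for Birc5, at 42.5 CPM against 38.1 to 38.7. The 5 values in bone all came from LiTra 1, Tra 3 and Co 3, the bone libraries named above as standing apart.

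The effect of the combined treatment differed between the tissues for 17 of the 23 named members, by the test of the difference itself (edgeR, Benjamini-Hochberg adjusted). Of all genes tested, 6.68% were called lower for this difference. The named members include those with the smallest p or the most extreme changes in these same data, so the count is no separate support. On the log2 scale, bone minus gingiva, the difference was -1.87 for Ccne1, -1.06 for Cdk2, -1.98 for Cdc6, -0.97 for Mcm2, -1.28 for Mcm7 and -2.02 for Rrm2. Among the mitotic genes it was -1.77 for Ccna2, -1.54 for Ccnb1, -2.14 for Ccnb2, -1.31 for Cdc25c, -1.94 for Aurka, -1.40 for Bub1b and -2.06 for Ube2c. It was -1.75 for Kif11, -2.09 for Birc5, -2.04 for Mki67 and -1.54 for Top2a. All 17 were below 0.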

How the results depend on the processing

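The 89 fold changes followed were those of members picked by role for level or p, where called, and the largest and smallest of each comparison. Of their 2841 values under alternatives 2821 held their direction. As most were picked for a call or an extreme value, this says little of stability. Over all 40 members in 16 comparisons, library totals turned 31 of 640 signs, 8 in bone Li against Co and 8 in the tissue difference of Tra. Calls of members were 0 under every alternative for bone Tra against Co, LiTra against Li and the interaction, gingiva Tra against Co and the tissue difference of Tra, which says nothing of stability. Counts in gingiva LiTra against Co (29 called; 21 to 33), LiTra against Tra (22; 20 to 29) and Co bone against Co gingiva (33; 28 to 37) stayed within 1.5 times. With library totals the count was 0 in bone LiTra against Co (11 called), bone LiTra against Tra (3) and the tissue difference of LiTra (31). DESeq2 gave 18 in bone LiTra against Co, 8 in bone LiTra against Tra, 10 in gingiva Li against Co (4), 3 in gingiva LiTra against Li (0), 1 in the gingiva interaction (0) and 4 in the tissue difference of Li (0), and limma-voom with sample quality weights gave 30 in bone LiTra against Co, 22 in bone LiTra against Tra, 2 in gingiva LiTra against Li and 6 in the tissue difference of Li. With only the compared groups in the fit the count was 26 in bone LiTra against Co, 0 in bone LiTra against Tra and 0 in gingiva Li against Co. No filter gave 0 in bone LiTra against Tra and 1 in gingiva Li against Co, and a filter of CPM over 1 in 4 libraries gave 5 in bone LiTra against Tra. Without bone Co 3, Tra 3 and LiTra 1 the count was 2 in bone Li against Co, 30 in LiTra against Co, 22 in LiTra against Tra and 11 in the tissue difference of Li. Without these and Co 4 and Li 2, chosen after seeing the data for their nasal gland counts, it was 22 in bone LiTra against Co, 17 in bone LiTra against Tra and 1 in the tissue difference of Li. Leaving out each library in turn gave 4 to 28 in bone LiTra against Co, 0 to 22 in bone LiTra against Tra, 1 to 7 in gingiva Li against Co, 0 to 3 in the tissue difference of Li and 20 to 34 in that of LiTra. Shares of all genes called are not set beside these counts, which show only how the counts moved. The cause was not tested.

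The labels do not say that equal replicate numbers mark paired libraries, and the deviations did not show it for every pair. Deviations of same-numbered libraries correlated at -0.46 to 0.69 in bone, with 6 of 24 pairs over 0.1, and at -0.30 to 0.27 in gingiva, with 8 of 24. Between bone and gingiva libraries of equal treatment and number 6 of 16 pairs were over 0.1 (median 0.070), and with other numbers 10 of 48 (median -0.011). With a replicate block the count was 9 in bone LiTra against Co, 0 in bone LiTra against Tra, 28 in gingiva LiTra against Co, 25 in gingiva LiTra against Tra, 4 in gingiva Li against Co, 33 in Co bone against Co gingiva and 20 in the tissue difference of LiTra. Shares of all genes are not set beside these counts either.

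Signs of log2 fold changes turned for values near 0 or resting on E2f1 in Co 3. E2f1 in bone Li against Co was 2.26e-05 without the 3 libraries and 0.080 without the 5. In the bone interaction E2f1 was -0.011 with limma-voom, -0.12 to 0.97 with single libraries left out, the lowest without Co 3, -0.17 without the 3 and -0.25 without the 5. Tyms in bone LiTra against Co was -0.023 to 0.21 with single libraries left out, the lowest without Co 3, -0.0048 without the 3 and -0.056 without the 5, and in LiTra against Tra it was -0.035 with limma-voom, -0.13 to 0.24 with single libraries left out, the lowest without Tra 3, -0.11 without the 3 and -0.10 without the 5. Ccne2 in bone Tra against Co was -0.096 to 0.38 with single libraries left out, the lowest without Tra 4, and in the tissue difference of Li it was -0.011 without the 3 and -0.00053 without the 5. Pcna in gingiva Li against Co was 0.0034 without Li 2, and in Co bone against Co gingiva 0.0037 without the 3 and 0.037 without the 5. Cdt1 in the gingiva interaction was -0.44 to 0.020 with single libraries left out, the highest without Tra 4. Of 640 counts of members in each tissue 2 in bone and 1 in gingiva were under 100.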
